A study of Mus musculus with 12 samples.

Results

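Complement is a protein cascade of innate immunity, and the genes described here are 33 of its components, regulators and receptors. Members were taken by gene symbol from the annotation of the array, and where a gene had several probe sets, that with the greatest log2 average across the arrays stood for it. A probe set of their own was found for 29 of the 33 members, out of 18193 genes in all, and 13 members had more than 1. C3, C7 and Cfd had no probe set of that symbol in the annotation used, and the probe set of C4b carries the symbol of another gene as well, so these 4 genes were not analysed here.

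Whole livers of male Balb/c mice, 8 weeks old at the start, were compared in 4 groups of 3 arrays. NC mice received olive oil and a control lentivirus (Lenti-NC), NC+CCl4 mice received CCl4 and the control lentivirus, shLFAR1 mice received oil and a lentivirus with a hairpin against the long noncoding RNA lnc-LFAR1 (Lenti-shLFAR1), and shLFAR1+CCl4 mice received CCl4 and the hairpin virus. CCl4, a liver toxin used to cause fibrosis, was given at 5% in olive oil, 0.3 ml per kg, 3 times a week, with the virus given by tail vein once 2 weeks of dosing had passed and dosing kept up for 4 weeks more. Every mouse therefore carried a lentivirus. The hairpin was driven by the H1 promoter, which does not limit it to a cell type, and the level of lnc-LFAR1 was not analysed here.

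The complement cascade starts through C1q bound to antibody or damaged cells (classical pathway), through lectins bound to sugars (lectin pathway) or by spontaneous turnover of C3 (alternative pathway). All routes meet at C3 and C5, release the peptides C3a and C5a that act on receptors of myeloid cells, and end in a membrane attack complex of C5b, C6, C7, C8 and C9. Hepatocytes make most of the circulating components, whereas C1q, properdin, the ficolins and the peptide receptors are known mainly from macrophages and other myeloid cells. By that textbook division the measured members hold 8 macrophage or myeloid components, 16 hepatocyte components and 5 from other or mixed sources.

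Promoters are shown for C1qb and C1qc, which rose most among the measured members as read by their main probe sets, and for C8b, which with C6 fell most among them, with its neighbour C8a. C1qa, C1qb and C1qc lie next to each other on mouse chromosome 4, and so do C8a and C8b on the same chromosome. The sequences are the RefSeq reference (GRCm38.p6, from a C57BL/6J mouse and not the Balb/c strain of the study), from 250 bases before to 50 bases after the gene's start, and a promoter was found for 23 of the 29 members. C1qb is at chr4:136886151-136886450 on the minus strand and C1qc at chr4:136892865-136893164 on the minus strand, with capitals on the core motif of the myeloid factor PU.1 (GAGGAA, or TTCCTC on the other strand). C8a is at chr4:104876349-104876648 on the minus strand and C8b at chr4:104766067-104766366 on the plus strand, with capitals on a core of the site of the hepatocyte factor HNF1 (GTTAAT, or ATTAAC on the other strand).
C1qb: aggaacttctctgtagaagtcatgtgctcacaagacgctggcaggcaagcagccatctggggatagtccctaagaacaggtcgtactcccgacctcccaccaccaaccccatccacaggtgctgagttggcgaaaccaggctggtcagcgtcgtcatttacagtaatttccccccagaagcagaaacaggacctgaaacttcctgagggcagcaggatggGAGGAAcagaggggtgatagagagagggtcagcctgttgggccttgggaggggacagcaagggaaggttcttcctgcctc
C1qc: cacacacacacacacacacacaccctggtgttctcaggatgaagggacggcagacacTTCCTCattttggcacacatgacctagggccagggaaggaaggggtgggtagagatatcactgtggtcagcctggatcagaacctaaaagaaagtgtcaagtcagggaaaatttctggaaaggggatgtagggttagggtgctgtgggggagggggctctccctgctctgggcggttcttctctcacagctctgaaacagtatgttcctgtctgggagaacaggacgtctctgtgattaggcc
C8a: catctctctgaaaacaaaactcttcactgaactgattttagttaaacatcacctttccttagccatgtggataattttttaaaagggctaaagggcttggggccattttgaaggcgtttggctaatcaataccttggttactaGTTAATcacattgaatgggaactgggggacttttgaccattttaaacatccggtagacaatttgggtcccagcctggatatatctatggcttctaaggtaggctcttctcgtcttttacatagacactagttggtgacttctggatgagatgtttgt
C8b: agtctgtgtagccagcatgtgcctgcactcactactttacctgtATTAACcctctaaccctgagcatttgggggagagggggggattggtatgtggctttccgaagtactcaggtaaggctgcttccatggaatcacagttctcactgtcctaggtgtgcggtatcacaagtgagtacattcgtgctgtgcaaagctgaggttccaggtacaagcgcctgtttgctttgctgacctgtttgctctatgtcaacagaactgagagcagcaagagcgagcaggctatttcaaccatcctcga
GAGGAA was present on either strand in 4 of the 7 macrophage or myeloid components with a promoter and in 1 of 12 hepatocyte components, beside 28.3% of all 32851 promoters. GTTAAT was present in 6 of the 12 hepatocyte components and in 1 of the 7 macrophage or myeloid components, beside 7.1% of all promoters. Counted from the start site, the first base of the match lay at -30 in C1qb, -193 in C1qc, -107 in C8a and -206 in C8b. The promoters shown all hold a motif of their source, which is not so for every called member. Fcna, which fell with CCl4, had 4 matches of GAGGAA, and C3ar1, which rose, had none. C6 and C8g, which fell, had neither motif. These letters are a description of the windows, and no binding was measured.

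Arrays did not stand evenly within the groups. On the first principal component of all genes, which held 56.3% of the variance, the NC and shLFAR1 arrays lay between -26.7 and -20.4 and the NC+CCl4 arrays between 34.8 and 48.8. The library labelled shLFAR1+CCl4 replicate 3 had 39.2 and so fell within the NC+CCl4 range, whereas replicates 1 and 2 lay at -6.80 and -9.66, so results that rest on this array are given with and without it. NC+CCl4 replicate 1 had a log2 difference between the 3′ and 5′ control probe sets of Gapdh of 0.716, against -0.205 to 0.0333 on the other 11 arrays. All 6 measured hepatocyte markers read far above the median gene, from a group mean of 11.3 for Hnf4a in NC+CCl4 to 14.4 for Alb in the same group.

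With CCl4 under the control virus, complement transcripts moved in both directions. C1qa, C1qb and C1qc, the chains of the C1q recognition molecule, and C3ar1, the C3a receptor, rose between 1.43 and 2.17 on the log2 scale, which is 4.52-fold for C1qc, while C6 and C8b, both subunits of the membrane attack complex, fell 2.18- and 2.17-fold. In NC+CCl4 against NC, 13 of the 29 members were called at an adjusted p under 0.05 in limma, 5 higher and 8 lower, beside 13.1% of all genes (7.66% higher and 5.41% lower). Masp1 is 1 of the 8, and its probe sets went in opposite directions, as given below, so without Masp1 it was 12 of 28, 5 higher and 7 lower. An unadjusted p under 0.05 was reached by 18 members, beside 27.1% of all genes. Arrays of both groups did not overlap for 19 members, 10 higher and 9 lower, beside 29.6% of all genes (13.8% higher). Of the 8 macrophage or myeloid components 4 rose and 1 fell, with a median log2 change of 0.96, and of the 16 hepatocyte components 1 rose and 6 fell, with a median of -0.12, beside a median of -0.05 over all genes. Without Masp1, 5 of 15 hepatocyte components fell, with the median again at -0.12. Neither source moved as one, since Fcna fell among the macrophage or myeloid components and C4bp rose among the hepatocyte components, and a difference between the sources was not tested. In whole liver, fewer cells of a type and less RNA per cell cannot be told apart.

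Single arrays set how many members passed. Without NC replicate 1 only 3 members rose and 2 fell (beside 6.94% of all genes called, 4.53% higher), without NC replicate 2 it was 3 and 3 (7.26%, of which 4.72% higher and 2.54% lower), and without NC+CCl4 replicate 3 it was 5 and 4 (9.09%). Without NC+CCl4 replicate 1, the array with the raised 3′ to 5′ difference, 7 rose and 6 fell (12.1%). Without shLFAR1+CCl4 replicate 3, which enters here through the shared spread, 6 rose and 9 fell (16.1% of all genes, 9.39% higher and 6.68% lower). C1qa, C1qb, C1qc, Masp1 and Fcna stayed called in each of the 12 fits that left out an array.

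**Figure D1:**
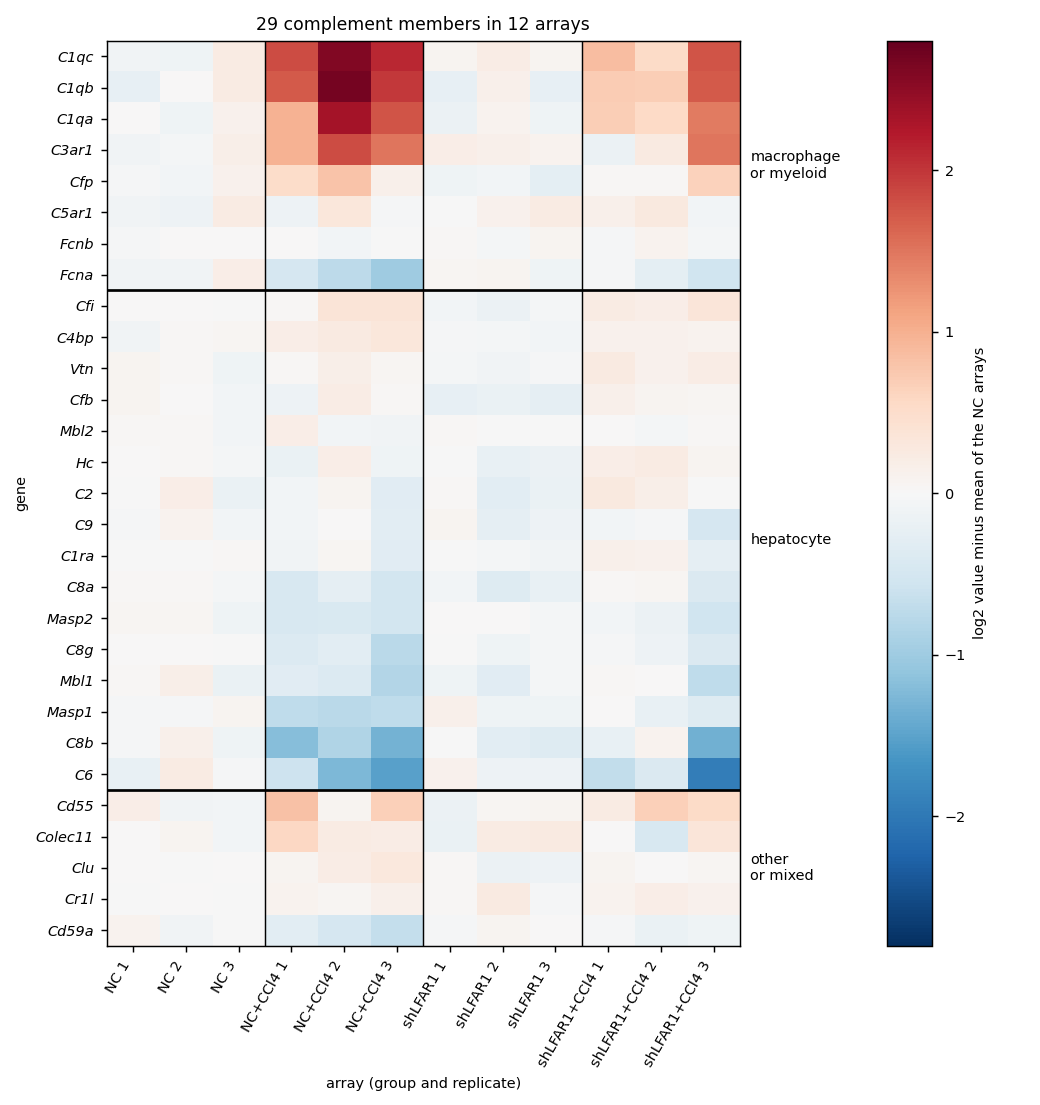
Log2 value of the 29 measured complement members on the 12 arrays, each relative to the mean of the 3 NC arrays (colour scale in log2 units, red higher and blue lower). Rows are grouped by known source and ordered by the NC+CCl4 change within each; C1qa, C1qb, C1qc and C3ar1 are the red rows in NC+CCl4 and in shLFAR1+CCl4 replicate 3, and C6 and C8b are the darkest blue.

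C1q was the group with the largest increase as read by the main probe sets. C1qc had log2 values of 6.97, 6.95 and 7.29 in NC, 8.90, 9.67 and 9.17 in NC+CCl4, 7.14, 7.28 and 7.14 in shLFAR1, and 7.93, 7.60 and 8.83 in shLFAR1+CCl4. C1qb had 7.59, 7.84 and 8.06 in NC, 9.54, 10.51 and 9.80 in NC+CCl4, 7.60, 7.98 and 7.60 in shLFAR1, and 8.55, 8.51 and 9.55 in shLFAR1+CCl4. C1qa had 8.0, 7.87 and 8.13 in NC, 8.98, 10.32 and 9.75 in NC+CCl4, 7.83, 8.10 and 7.89 in shLFAR1, and 8.70, 8.56 and 9.45 in shLFAR1+CCl4. All CCl4 arrays of both viruses were above all oil arrays for each of the 3 genes, and within shLFAR1+CCl4 replicate 3 was the highest. The change in NC+CCl4 against NC was 2.17 ± 0.27 for C1qc (SE, adjusted p = 0.000692, limma), 2.12 ± 0.29 for C1qb (adjusted p = 0.00116) and 1.68 ± 0.29 for C1qa (adjusted p = 0.00341). The other probe sets of C1qb changed by 2.41 and 2.23 and were called as well.

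The serine proteases that C1q activates or engages did not follow it. C1ra, a protease of the C1 complex, had a log2 change of -0.12 and C2, the protease subunit of the C3 convertase, one of -0.11, neither called in limma (adjusted p = 0.543 and 0.662). Both are hepatocyte components, and their NC and NC+CCl4 arrays overlapped.

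In the lectin pathway 3 of 7 members were called lower and none higher, or 2 of 6 without Masp1, beside 5.41% of all genes lower. Fcna, the plasma ficolin made by liver macrophages, read 7.89, 7.88 and 8.17 in NC, 7.51, 7.24 and 6.98 in NC+CCl4, 8.03, 8.06 and 7.86 in shLFAR1, and 7.94, 7.70 and 7.42 in shLFAR1+CCl4. It fell by 0.74 ± 0.16 (SE, adjusted p = 0.0107, limma), so it moved against C1q, which has the same textbook source. Masp2, the protease that cleaves C4 and C2, read 10.21, 10.22 and 10.05 in NC, 9.72, 9.73 and 9.65 in NC+CCl4, 10.18, 10.16 and 10.10 in shLFAR1, and 10.08, 9.99 and 9.60 in shLFAR1+CCl4. Masp2 fell by 0.46 ± 0.12 (adjusted p = 0.0212, limma), and its other probe set had a change of -0.10 that was not called. Without NC replicate 1, NC replicate 2 or NC+CCl4 replicate 3 the adjusted p of Masp2 was 0.0792, 0.0815 and 0.0608. The mannose-binding lectins were not called, with -0.51 for Mbl1 (adjusted p = 0.106) and 0.00 for Mbl2, nor were Colec11 at 0.34 and Fcnb at -0.04. Fcnb, at log2 4.71 and 4.75, was below the median of all gene means of 5.59.

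Masp1 was read differently by its probe sets. The gene is known to give several products by splicing, among them the proteases MASP-1 and MASP-3, and which product each probe set reads was not analysed here. Its highest probe set read 9.92, 9.93 and 10.03 in NC, 9.25, 9.20 and 9.26 in NC+CCl4, 10.1, 9.84 and 9.84 in shLFAR1, and 9.97, 9.76 and 9.59 in shLFAR1+CCl4. It fell by 0.72 ± 0.11 (SE, adjusted p = 0.00182, limma), and the NC+CCl4 arrays were below all others. A second of its 5 probe sets read 7.57, 7.55 and 7.69 in NC, 8.27, 8.09 and 8.14 in NC+CCl4, 7.66, 7.96 and 7.63 in shLFAR1, and 7.80, 7.54 and 8.02 in shLFAR1+CCl4. That probe set rose by 0.56 ± 0.14 (adjusted p = 0.0225 over all probe sets, limma), with its NC+CCl4 arrays above all others. The remaining 3 had changes of 0.56, 0.43 and 0.08 and were not called, and the mean of all 5 probe sets had a change of 0.18 (adjusted p = 0.266). A direction for Masp1 as a whole is therefore not given. Counts of called members in the main fit are also given without it. Other counts, such as those of unadjusted p, of arrays without overlap and of signs, hold Masp1 unless stated.

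**Figure D2:**
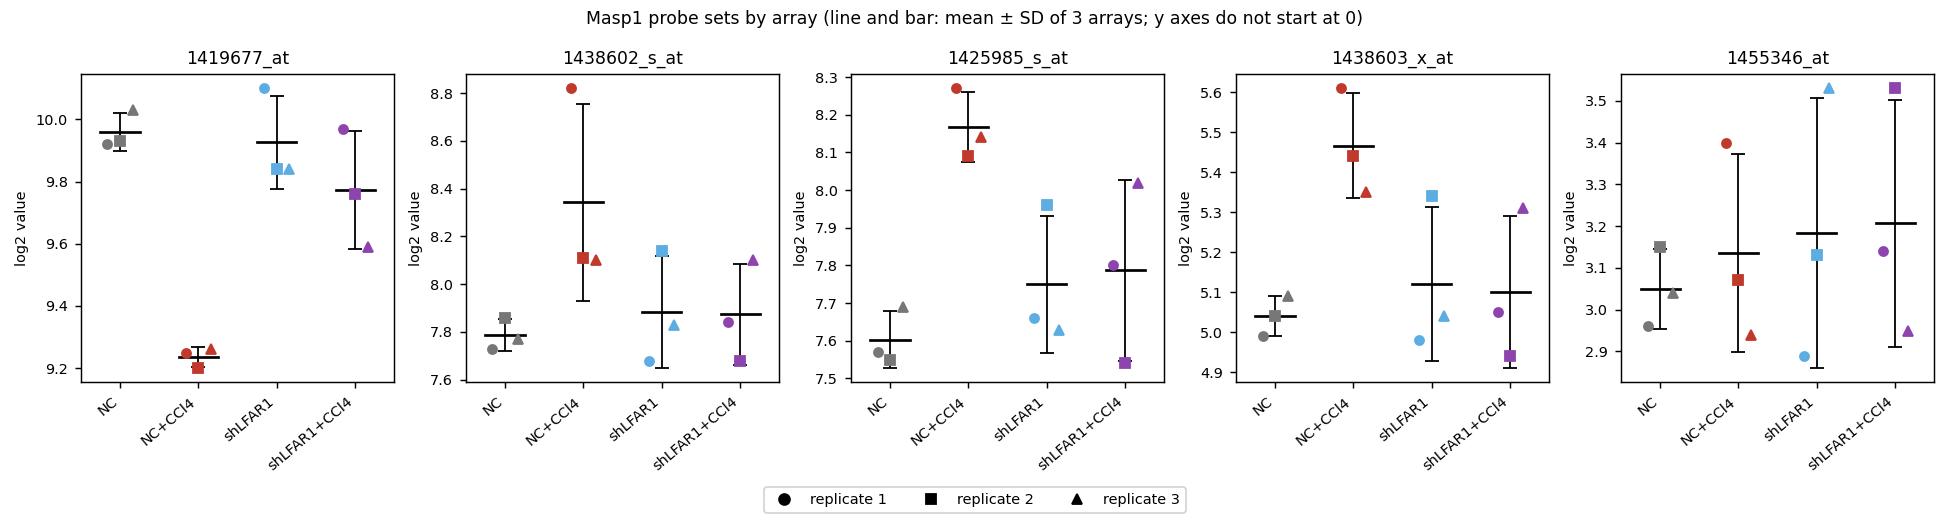
Log2 value of the 5 Masp1 probe sets on each of the 12 arrays, 1 panel for each probe set, with group mean ± SD of 3 arrays (y axes do not start at 0). The leftmost panel, the probe set used for the gene, is lowest in NC+CCl4, and the middle panel is highest there.

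Of the 2 measured alternative-pathway members neither was called, beside 13.1% of all genes. Cfp, properdin, which stabilises the alternative convertase, read 6.31, 6.27 and 6.46 in NC and 6.87, 7.15 and 6.48 in NC+CCl4, a change of 0.49 ± 0.19 (adjusted p = 0.119, limma), with NC+CCl4 replicate 3 close to the NC arrays. Cfb, the factor B protease from hepatocytes, had a change of 0.04.

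In the terminal pathway 4 of the 6 measured members fell and none rose, beside 5.41% of all genes lower and 7.66% higher. C6 read 10.0, 10.44 and 10.16 in NC, 9.62, 8.94 and 8.67 in NC+CCl4, 10.33, 10.06 and 10.05 in shLFAR1, and 9.50, 9.80 and 8.27 in shLFAR1+CCl4. C8b, the beta chain of C8, read 11.07, 11.25 and 10.98 in NC, 9.90, 10.26 and 9.78 in NC+CCl4, 11.09, 10.81 and 10.73 in shLFAR1, and 10.90, 11.20 and 9.76 in shLFAR1+CCl4. Both were lower in every NC+CCl4 array than in any oil array, and shLFAR1+CCl4 replicate 3 was the lowest array of all 12 for each. C6 fell by 1.12 ± 0.33 (SE, adjusted p = 0.0428, limma) and C8b by 1.12 ± 0.28 (adjusted p = 0.0210).

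The alpha and gamma chains of C8 changed less. C8a read 12.57, 12.57 and 12.49 in NC, 12.10, 12.30 and 12.03 in NC+CCl4, 12.47, 12.18 and 12.34 in shLFAR1, and 12.58, 12.60 and 12.13 in shLFAR1+CCl4. C8g read 12.73, 12.75 and 12.71 in NC, 12.34, 12.43 and 11.97 in NC+CCl4, 12.71, 12.61 and 12.67 in shLFAR1, and 12.70, 12.59 and 12.33 in shLFAR1+CCl4. For C8a the oil arrays with the knockdown virus reached down into the range of NC+CCl4, whereas for C8g all oil arrays were above all NC+CCl4 arrays. C8a fell by 0.40 ± 0.12 (adjusted p = 0.0480, limma) and C8g by 0.48 ± 0.12 (adjusted p = 0.0164). Hc, which encodes C5, read 12.35, 12.38 and 12.28 in NC, 12.15, 12.53 and 12.21 in NC+CCl4, 12.33, 12.12 and 12.18 in shLFAR1, and 12.52, 12.57 and 12.42 in shLFAR1+CCl4, and its change of -0.04 was not called (adjusted p = 0.819). C9, the pore-forming subunit, had -0.12 (adjusted p = 0.573).

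Calls in the terminal pathway rested on single arrays more than those of C1q. C6 was no longer called in 8 of the 12 fits without an array, with an adjusted p of 0.0585 to 0.145. C8b was not called without NC replicate 1, NC replicate 2, NC+CCl4 replicate 1 or NC+CCl4 replicate 3 (adjusted p of 0.0556 to 0.0785), and C8g was not called without NC replicate 1 or 2 (0.0553 and 0.0587). C8a was not called in 9 of the 12, with an adjusted p of 0.0509 to 0.144. Without shLFAR1+CCl4 replicate 3, which widens the spread shared by all groups, the adjusted p was 0.00261 for C6, 0.000179 for C8b, 0.00510 for C8g and 0.00678 for C8a.

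Among the 7 regulators 1 rose and 1 fell, beside 7.66% of all genes higher and 5.41% lower. C4bp, the C4b-binding protein from hepatocytes, read 11.63, 11.77 and 11.79 in NC, 11.92, 11.99 and 12.05 in NC+CCl4, 11.69, 11.68 and 11.65 in shLFAR1, and 11.86, 11.86 and 11.83 in shLFAR1+CCl4. The CCl4 arrays lay above the oil arrays under both viruses, and the change was 0.26 ± 0.07 (adjusted p = 0.0239, limma). Cd59a, a membrane inhibitor of the attack complex, read 9.59, 9.39 and 9.47 in NC, 9.19, 9.02 and 8.82 in NC+CCl4, 9.45, 9.55 and 9.50 in shLFAR1, and 9.44, 9.30 and 9.37 in shLFAR1+CCl4. It fell by 0.47 ± 0.10 (adjusted p = 0.0114, limma), and its other probe set fell by 0.73 and was called. C4bp was not called without NC replicate 1, NC replicate 2 or NC+CCl4 replicate 3 (0.110, 0.0563 and 0.0705), and Cd59a was not called without NC replicate 1 (0.0589).

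The remaining regulators were not called in limma. Cfi, the protease that inactivates C3b and C4b, read 12.65, 12.66 and 12.63 in NC and 12.69, 13.0 and 13.01 in NC+CCl4, a change of 0.26 (adjusted p = 0.0601). Without NC+CCl4 replicate 1 Cfi had 0.36 and was called (adjusted p = 0.00628), and Clu, clusterin, went from 0.20 (adjusted p = 0.0798) to 0.26 (adjusted p = 0.0309). Cd55, decay-accelerating factor, had 0.51 (adjusted p = 0.0817) at log2 3.98 in NC and 4.50 in NC+CCl4, both below the median gene. Cr1l had 0.10 and Vtn, vitronectin, 0.09.

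Of the 2 receptors C3ar1 rose, beside 7.66% of all genes. It read 5.48, 5.53 and 5.74 in NC, 6.56, 7.42 and 7.08 in NC+CCl4, 5.77, 5.72 and 5.68 in shLFAR1, and 5.43, 5.84 and 7.09 in shLFAR1+CCl4. The NC+CCl4 arrays were above all oil arrays, and shLFAR1+CCl4 replicate 3 was within their range. Replicate 1 was just below the range of the oil arrays and replicate 2 just above it. The change was 1.43 ± 0.33 (SE, adjusted p = 0.0144, limma), and the other 2 probe sets rose by 1.99 and 3.36. Without NC replicate 1 or 2 the adjusted p was 0.0554 and 0.0519. C5ar1, the C5a receptor, had a change of 0.05 at log2 4.08 in NC and 4.12 in NC+CCl4, below the median gene.

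**Figure D3:**
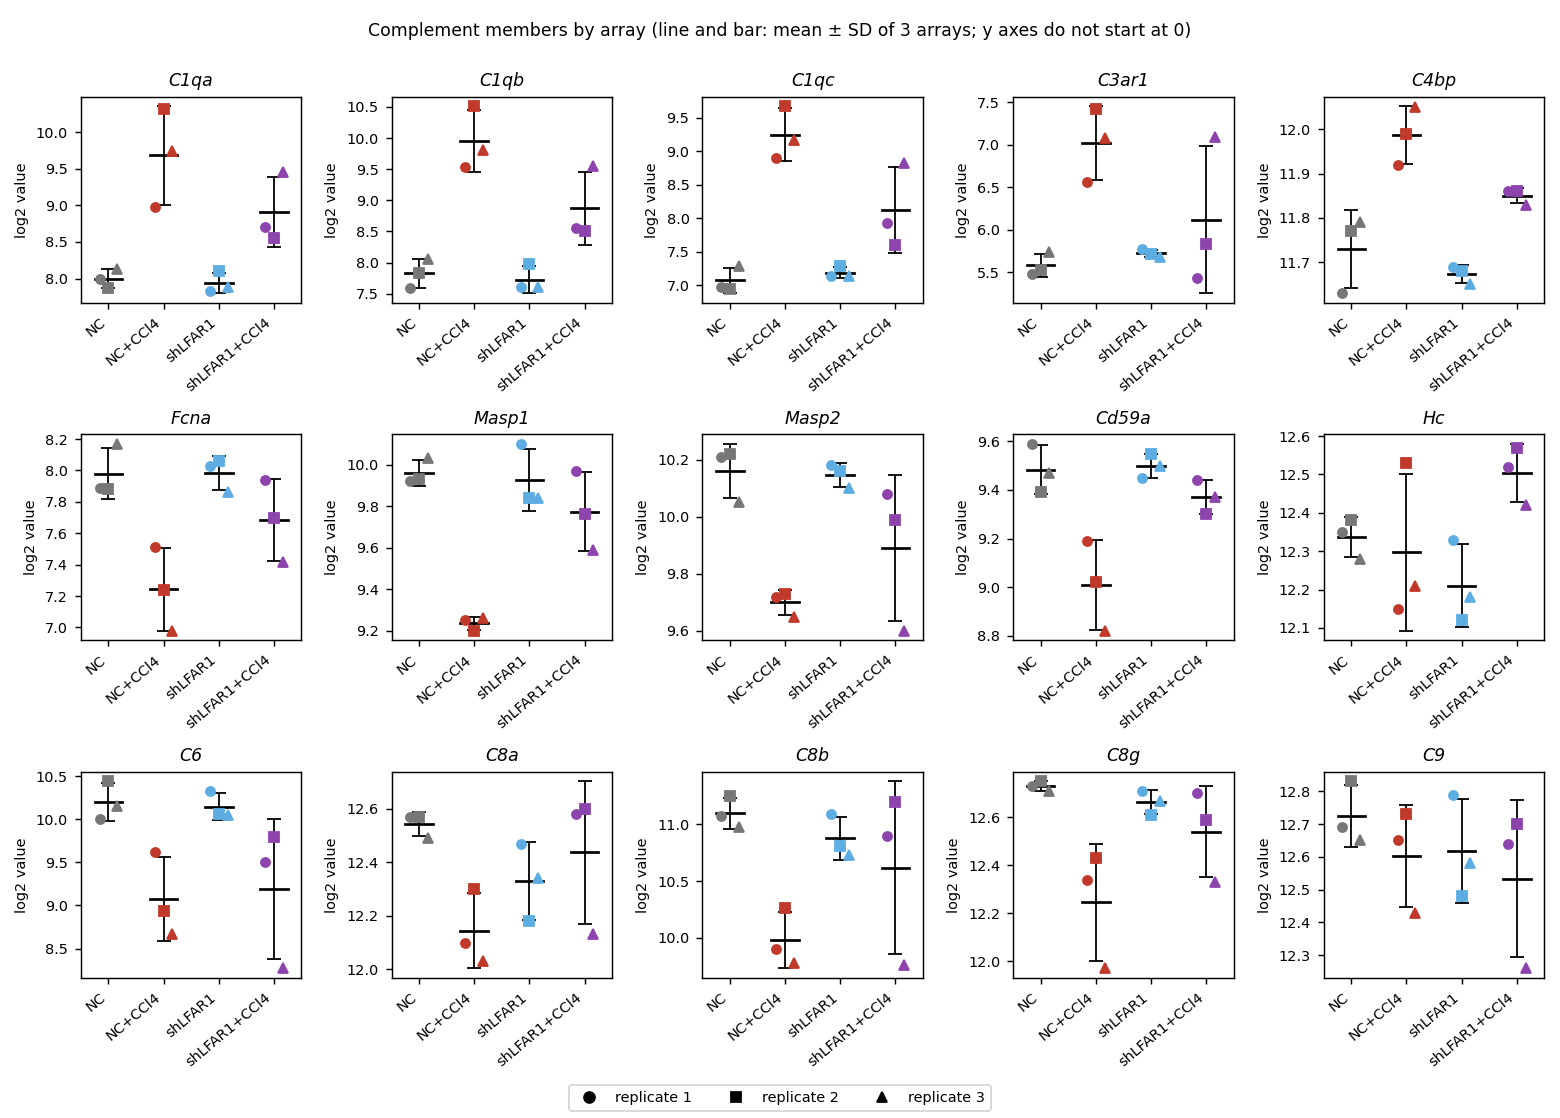
Log2 value of 15 complement members on each array (the 13 called in NC+CCl4 against NC, and Hc and C9), with group mean ± SD of 3 arrays; marker shapes give the replicate. C1qa, C1qb, C1qc and C3ar1 are highest in NC+CCl4, and shLFAR1+CCl4 replicate 3 (triangle) is apart from replicates 1 and 2 for C3ar1, C6, C8a and C8b.

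Most macrophage markers rose, as C1q and C3ar1 did, while Fcna fell and the other macrophage or myeloid components were not called. Of the 11 measured markers 8 rose in NC+CCl4 against NC and none fell, with a median change of 1.72, among them Lyz2, lysozyme (3.94), Cd68 (2.94), Csf1r, the receptor for the macrophage growth factor (1.92), and Adgre1 (1.33). Clec4f, Timd4 and Marco, which mark resident macrophages of the liver, were not called, with 0.07, -0.34 and 0.10, whereas Cd5l rose by 0.77. Timd4 and Marco lay below the median gene, at 4.64 and 4.97 in NC. Clec4f was spread in NC+CCl4, at 9.02, 8.49 and 7.52, against 8.15, 8.31 and 8.36 in NC. Stability of resident macrophage transcripts is therefore not read from these genes. Of the markers of other cells, 6 of 8 for stellate cells rose (median 1.46), 2 of 8 for neutrophils and 1 of 5 for T and B cells. None of 6 endothelial, 4 cholangiocyte and 4 adipocyte markers was called, beside 13.1% of all genes (7.66% higher). Cd3g, the T and B cell marker called, read 3.17 in NC and 3.59 in NC+CCl4 on average, below the median gene. The adipocyte markers, Pecam1, Krt7, Krt19 and Sox9 also had group means below it, so the absence of a call says little there. The mean of the 8 macrophage or myeloid components relative to NC was 0.676, 1.21 and 0.798 on the NC+CCl4 arrays, where the marker mean was 1.37, 1.99 and 1.20 in the same order. On the shLFAR1+CCl4 arrays the component mean was 0.279, 0.266 and 0.800 and the marker mean 0.642, 0.593 and 1.53. Replicate 2 of NC+CCl4 and replicate 3 of shLFAR1+CCl4 were the highest of their group for both lists. In NC+CCl4 the lowest was replicate 1 for the components and replicate 3 for the markers. The part of macrophage number in the change of C1q and C3ar1 was not tested.

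The mean of the hepatocyte components was below that of NC on every array of the other groups except shLFAR1+CCl4 replicates 1 and 2. Relative to NC it was -0.263, -0.184 and -0.409 on the NC+CCl4 arrays, -0.0139, -0.167 and -0.126 on the shLFAR1 arrays, and 0.0193, 0.0148 and -0.353 on the shLFAR1+CCl4 arrays. All 3 oil arrays with the knockdown virus were thus below 0 as well, with replicate 2 close to NC+CCl4 replicate 2. The mean of the 6 hepatocyte markers lay between -0.0188 and 0.0772 on all 12 arrays, and none was called in NC+CCl4 against NC (median change 0.06). Alb, Ttr, Apoa1 and Apoa2 had NC means from 14.02 for Ttr to 14.28 for Alb, close to the highest value on any array of 14.52. How far the top of the range limits a change was not tested, so stability is not read from those markers. For 2 of the 6 the NC+CCl4 arrays were above all NC arrays, beside 13.8% of all genes. Alb read 14.28 on each NC array and 14.38, 14.39 and 14.47 in NC+CCl4, and Ttr read 14.04, 13.96 and 14.06 in NC and 14.19, 14.18 and 14.23 in NC+CCl4. Hnf4a, a hepatocyte transcription factor and the lowest of the 6 at 11.6 in NC, had a change of -0.27 (adjusted p = 0.201, limma). The 9 hepatocyte components that were not called had changes from -0.51 to 0.26.

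**Figure D4:**
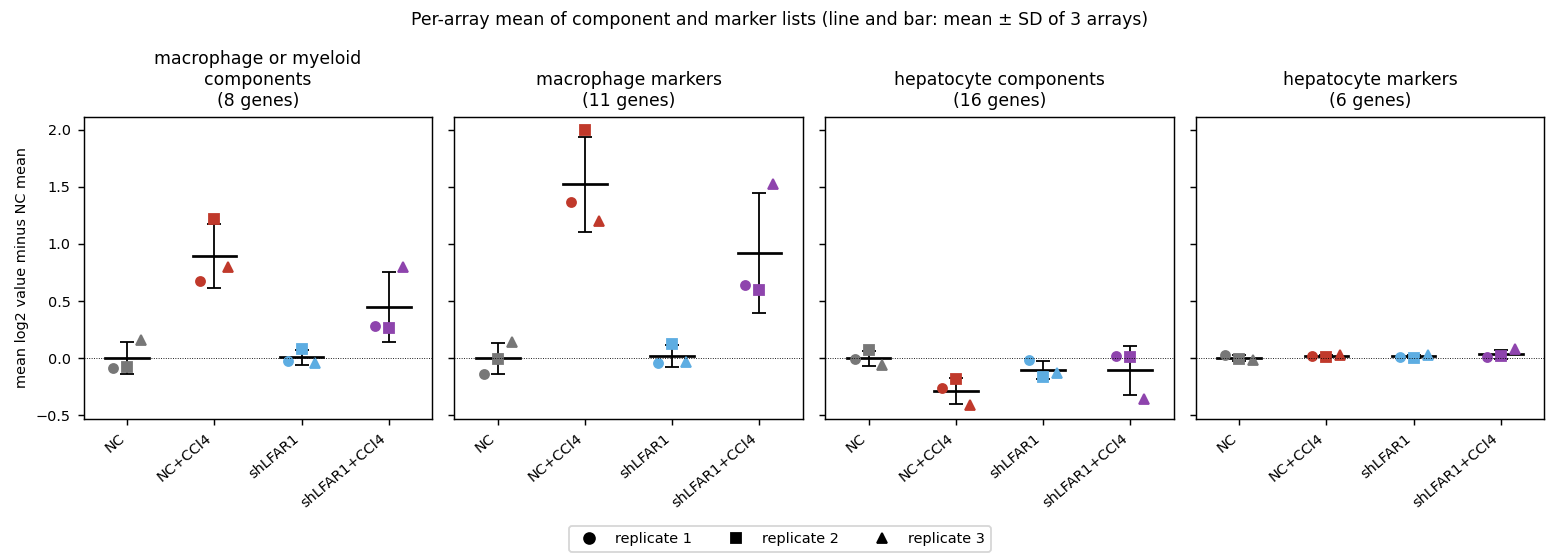
Mean log2 value of each list on each array relative to the NC mean, for the macrophage or myeloid components (8 genes), macrophage markers (11), hepatocyte components (16) and hepatocyte markers (6), with group mean ± SD of 3 arrays. Macrophage components and markers are raised on all CCl4 arrays, and hepatocyte components are below 0 on all NC+CCl4 and shLFAR1 arrays and on shLFAR1+CCl4 replicate 3. The mean of the hepatocyte markers stays between -0.0188 and 0.0772, and most of these markers are near the top of the measured range.

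Whether the knockdown virus altered complement in CCl4-treated liver was asked by shLFAR1+CCl4 against NC+CCl4. None of the 29 members was called in limma, beside 0.291% of all genes, and 10 had an unadjusted p under 0.05, beside 14.2% of all genes. The smallest adjusted p belonged to Masp1 (0.54 ± 0.11, SE, adjusted p = 0.0662), C1qc (-1.13 ± 0.27, adjusted p = 0.0946) and C1qb (-1.08 ± 0.29, adjusted p = 0.112). C1qa had -0.78 (adjusted p = 0.244), C3ar1 -0.90 (0.242) and C8b 0.64 (0.332). Arrays did not overlap for 4 members, beside 12.3% of all genes (7.2% higher and 5.11% lower), with Masp1 and Cd59a above and C1qc and C4bp below NC+CCl4. The median was -0.51 over macrophage or myeloid components and 0.15 over hepatocyte components, beside 0.01 over all genes. Of the 11 macrophage markers none was called (median -0.58), and the stellate cell markers had a median of -0.87; their part in these values was not tested. Masp1 had an adjusted p of 0.0440 without NC+CCl4 replicate 2, and a change of -0.12 as the mean of its 5 probe sets.

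This comparison rested on shLFAR1+CCl4 replicate 3. Without it 10 members were called, 6 higher and 4 lower, beside 7.29% of all genes (2.4% higher and 4.9% lower). Without Masp1 it was 9 of 28, 5 higher and 4 lower, since other probe sets of Masp1 had changes of -0.47, -0.38 and -0.37 in this comparison with all arrays. C1qc had -1.48 ± 0.20 (SE, adjusted p = 0.00105, limma), C3ar1 -1.39 ± 0.21 (adjusted p = 0.00216), C1qb -1.42 ± 0.24 (adjusted p = 0.00383) and C1qa -1.05 ± 0.28 (adjusted p = 0.0390). C8b had 1.07 ± 0.16 (adjusted p = 0.00168), Masp1 0.63 ± 0.11 (0.00423), C8a 0.45 ± 0.10 (0.0142), Masp2 0.33 ± 0.09 (0.0429), Mbl1 0.53 ± 0.15 (0.0461) and C8g 0.40 ± 0.11 (0.0469). For the 13 members called in NC+CCl4 against NC, replicates 1 and 2 lay nearer the shLFAR1 mean in 11 and 12, whereas replicate 3 lay nearer the NC+CCl4 mean in 10. What sets this array apart was not tested, and the labels give no reason to leave it out.

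CCl4 under the knockdown virus was read from shLFAR1+CCl4 against shLFAR1. No member was called in limma, beside 0.407% of all genes (0.324% higher and 0.0824% lower). Before adjustment 11 had p under 0.05, beside 10.8% of all genes. Arrays did not overlap for 13 members, 10 higher and 3 lower, beside 20.1% of all genes (8.41% higher). The smallest adjusted p belonged to Cfi (0.35 ± 0.08, SE, adjusted p = 0.108), C1qb (1.14 ± 0.29, adjusted p = 0.131) and Vtn (0.25 ± 0.07, adjusted p = 0.143). Cfi read 12.56, 12.49 and 12.60 in shLFAR1 and 12.87, 12.84 and 12.98 in shLFAR1+CCl4, and Vtn read 13.10, 13.05 and 13.12 in shLFAR1 and 13.39, 13.27 and 13.36 in shLFAR1+CCl4. For both genes all 3 CCl4 arrays, replicate 3 included, were above the oil arrays. Without NC+CCl4 replicate 1, which enters this test only through the shared spread, Cfi was called (adjusted p = 0.0207).

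Several of these values also rested on replicate 3. C6 had -0.96 ± 0.33 with all arrays and -0.50 ± 0.23 without it, C3ar1 0.40 ± 0.33 and -0.09 ± 0.21, and C8b -0.26 ± 0.28 and 0.17 ± 0.16. C1qb had 0.80 ± 0.24 without it (adjusted p = 0.305), C1qa 0.69 and C1qc 0.58, so C1q stayed above its oil level on the other 2 arrays. The mean over macrophage or myeloid components was 0.44 with all arrays and 0.27 without replicate 3, and over hepatocyte components it was -0.0041 and 0.12.

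The CCl4 changes under the viruses, which share no array, are set side by side in the plot of one against the other. Of all 29 members 23 had the same sign under both viruses (79.3%, beside 67.3% of all genes), and 23 had the smaller change under the knockdown virus, beside 11842 of 18193 genes. Of the 13 members called under the control virus 12 had the same sign and all 13 were smaller under the knockdown virus, beside 88.6% and 2309 of the 2378 genes called there. Choosing genes by their call under the control virus favours a smaller change under the other, so nothing is read from the latter counts. Across the 29 members Pearson r was 0.90, and across all genes it was 0.71, where genes are not independent.

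**Figure D5:**
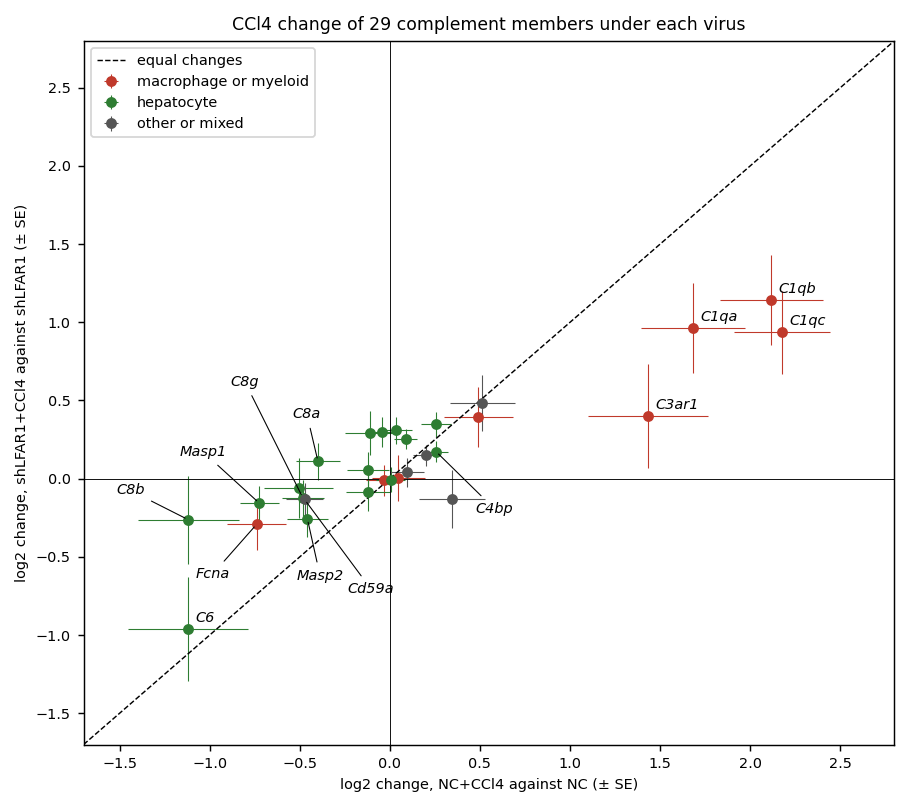
Log2 change ± SE of the 29 complement members in shLFAR1+CCl4 against shLFAR1 (y axis) and in NC+CCl4 against NC (x axis), coloured by known source, with the members called in NC+CCl4 against NC named. C1qa, C1qb, C1qc and C3ar1 lie below the dashed line of equal changes, while C6 is close to it at -1.12 and -0.96.

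The difference of the CCl4 responses (that under the knockdown virus minus that under the control virus) was called for no member in limma, beside 0.022% of all genes, and 9 members had an unadjusted p under 0.05, beside 9.51% of all genes. Masp1 had 0.57 ± 0.15 (SE, adjusted p = 0.306), C1qc -1.24 ± 0.38 (adjusted p = 0.345) and C8a 0.51 ± 0.17 (adjusted p = 0.384). Without shLFAR1+CCl4 replicate 3 the difference was called for 6 members, beside 3.2% of all genes (1.05% higher and 2.15% lower), or 5 of 28 without Masp1. These were C1qc (-1.59, adjusted p = 0.00860), C3ar1 (-1.52, 0.0154) and C1qb (-1.32, 0.0476) below 0, and C8b (1.29, 0.00740), C8a (0.66, 0.0172) and Masp1 (0.66, 0.0306) above 0. With all arrays the attack complex members C6 and C8b had 0.16 ± 0.47 and 0.86 ± 0.40 (SE), neither called.

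In oil-treated liver the knockdown virus changed no member in limma. In shLFAR1 against NC none of 29 was called, beside 0.0% of all genes, and 1 had an unadjusted p under 0.05, beside 2.77% of all genes. That member was Cfb, which read 11.89, 11.82 and 11.74 in NC and 11.58, 11.64 and 11.57 in shLFAR1 (-0.22 ± 0.09, SE, unadjusted p = 0.0251, adjusted p = 1.00). In shLFAR1+CCl4 Cfb read 11.95, 11.90 and 11.87, above all its oil arrays with that virus. Changes of the 29 members lay between -0.22 and 0.14. Next by p were C8a (-0.21) and Clu (-0.09), which read 13.16, 13.14 and 13.16 in NC and 13.18, 12.98 and 13.01 in shLFAR1. Of the 16 hepatocyte components 15 had a negative change, beside 9063 of 18193 genes, with a median of -0.08. These genes were read on the same arrays and are not independent, so no effect of the virus is read from their signs. For 3 of the 16 the arrays did not overlap, all lower, beside 10.8% of all genes in either direction (6.01% higher and 4.76% lower).

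Other complement genes, from a list of 32 of which 23 were measured, had a median change of -0.05 with large changes in both directions. In NC+CCl4 against NC 4 of the 23 rose and 3 fell in limma, beside 7.66% of all genes higher and 5.41% lower. The complement receptor subunit Itgb2 rose by 3.04 ± 0.50 (SE, adjusted p = 0.00291) and Itgax, the partner chain of CR4, by 2.28 ± 0.57 (adjusted p = 0.0207), and Cd93, once named a C1q receptor, rose by 2.27 ± 0.41 (adjusted p = 0.00418). Susd4, a membrane regulator of complement, fell by 3.06 ± 0.31 (adjusted p = 0.000207), Cfhr3, a factor H-related gene, by 1.27 ± 0.19 (adjusted p = 0.00177, at log2 4.58 in NC, below the median gene) and Cfhr2, its relative, by 0.59 ± 0.12 (adjusted p = 0.00741). Susd4 also fell by 2.96 ± 0.31 in shLFAR1+CCl4 against shLFAR1 (adjusted p = 0.000776, limma), the only one of the 23 called there, beside 0.407% of all genes. It had 0.28 in shLFAR1+CCl4 against NC+CCl4 (adjusted p = 0.763). Itgb2 had -1.02 (adjusted p = 0.387) and Cd93 -0.89 (adjusted p = 0.351) in the latter comparison.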

How the data were processed

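Total RNA of mouse liver was biotin-labelled and hybridized to Affymetrix mouse whole-genome arrays, 3 for each of 4 groups taken from the sample labels, which call the replicates biological. The deposited values are log2 intensities between 1.81 and 14.5, summarized and normalized by the authors with a method not given in the sources used here. Array means were 5.10 to 5.11, so a change of total RNA cannot be read, and no detection calls come with them. Annotation gave 1 symbol to 34945 of 45101 probe sets, and 18193 genes were each represented by their brightest probe set on average. No array repeated another, and the number of arrays limits the precision.

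Genes were fitted with limma 3.58.1 in R 4.3.3 (lmFit and eBayes with an intensity trend, 4 groups, 12 arrays), two-sided, with Benjamini-Hochberg adjustment over all 18193 genes and a call at an adjusted p under 0.05. One spread was shared by all groups. List means, medians and counts were described without a test. The script was tested on simulated data. Members and lists were chosen with earlier results of these data known. Values in every array are given for called members (at most 14, by adjusted p), the 3 members with the smallest p where a comparison had none called, C1q and Hc, and members with probe sets called in opposite directions. Other complement genes are named where called, up to 6 by adjusted p. The study screened at p under 0.05 and a fold over 1.6 without naming the test for the arrays, and Student's t-test at that threshold was run as an alternative, called the t-test below.

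Whether replicate numbers pair arrays was checked by correlating, over genes, how same-numbered arrays deviate from their own group. Between both CCl4 groups every correlation was over 0.1 (0.126 to 0.229, against -0.234 to 0.0932 for other numbers), while no other pair of groups passed. The labels state no pairing, and deviations within a group cancel, so these correlations are not independent. The numbers were therefore treated as possible pairs only in the fits with a replicate block, and the main fit is unpaired. Alternatives were a filter on low values, the mean of all probe sets, every probe set, quantile normalization, no trend, array weights, the replicate block, only the groups compared, the t-test and leaving out each array. Leaving Masp1 out of the counts was added after seeing the data.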

Additional observations from a re-analysis of the deposited data

How the results depend on the processing

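Of the 22 alternatives the t-test was scored at the study's threshold, without adjustment, and all others by adjusted p. So scored, C1qa, C1qb, C1qc and Fcna kept their direction and call in NC+CCl4 against NC under all 22. After Benjamini-Hochberg the t-test called none of these genes (adjusted p of 0.0550 to 0.153). C8a lost its call in 14 alternatives, C6 in 9, C4bp in 7, Masp2 in 5, C8b and Cd59a in 4 each, C8g in 3 and C3ar1 in 2. Masp1 reversed as the mean of all its probe sets, to 0.18 in NC+CCl4 against NC and to -0.12 in shLFAR1+CCl4 against NC+CCl4. In NC+CCl4 against NC, 4 members fell rather than 8 with the mean of all probe sets, beside 2260 of 18193 genes called in either direction. By the t-test at the study's threshold 4 fell, beside 1262 genes, and after Benjamini-Hochberg that test left 0 higher and 1 lower. Leaving out an array gave 3 to 7 higher and 2 to 9 lower, beside 1263 to 2923 genes called. In shLFAR1+CCl4 against NC+CCl4, array weights gave 4 higher and 4 lower, beside 919 of 18193 genes called, against 53 in the main fit. The filter on low values gave 1 higher, beside 62 of 9096 genes. Leaving out an array gave 0 to 6 higher and 0 to 4 lower, beside 4 to 1327 genes. In shLFAR1+CCl4 against shLFAR1, array weights gave 7 higher, beside 375 genes called against 74 in the main fit. The t-test gave 2 higher, beside 240 genes, and leaving out an array gave 0 to 1 higher, beside 23 to 110 genes. In the difference of the CCl4 responses, array weights gave 2 higher and 2 lower, beside 393 genes called against 4 in the main fit. Leaving out an array gave 0 to 3 in each direction, beside 0 to 583 genes. The mean change of macrophage or myeloid components in NC+CCl4 against NC was 0.90, and 1.19 both with the filter, which keeps 6 of the 8, and with each member's probe set of lowest p; the causes of the other shifts were not tested. With the replicate number as a block, NC+CCl4 against NC had 5 higher and 8 lower over 12 arrays, beside 2440 of 18193 genes called. Over the groups compared it had 4 and 8, beside 1757 genes. In shLFAR1+CCl4 against NC+CCl4, where the numbers may pair, it was 0 and 0 in either fit, beside 55 and 0 genes. The block changed the call of C4bp (adjusted p = 0.122), Cd59a (0.0637) and Mbl1 (0.0210) in the fit of both groups compared. Quantile normalization gave 6 higher and 7 lower in NC+CCl4 against NC, beside 2735 genes called. Cfi was called in addition (adjusted p = 0.0225, limma) and C8a was no longer called (0.0703). Leaving out Masp1, chosen after seeing the data, gave 5 higher and 7 lower in NC+CCl4 against NC and a mean hepatocyte change of -0.256. Low values without detection calls limit Fcnb, Cd55 and C5ar1, which lay below the median gene.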
